A study of Bos taurus with 8 samples.

Results

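The enzymes that degrade lysine were examined in bovine blastocysts produced in vitro and in vivo. The members were 7 genes, AASS, AADAT, ALDH7A1, DHTKD1, GCDH, PIPOX and DLST, and their probes were found by gene symbol in the platform annotation of the array. Of these, 6 genes had a probe, 15 probes in all, out of 15229 symbols on 43795 probes. DLST had no probe under its symbol and was dropped. The set was chosen by pathway with the in vitro over in vivo log2 ratios of these arrays already known, so the ratios of the members are given as a description, with no p-value.

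In mammals the main route of lysine breakdown runs inside mitochondria. AASS, a bifunctional enzyme, joins lysine to 2-oxoglutarate to form saccharopine and then splits it into glutamate and aminoadipate semialdehyde. ALDH7A1 oxidises that semialdehyde, AADAT transfers the amino group of aminoadipate, and DHTKD1 with DLST and DLD turns 2-oxoadipate into glutaryl-CoA. GCDH then forms crotonyl-CoA and hands electrons to the electron transfer flavoprotein. PIPOX is the peroxisomal oxidase of pipecolate, a side branch that joins the route at the semialdehyde. The pathway is best known from liver and kidney.

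RNA from both kinds of day 7 blastocyst was hybridised together on 8 two-colour arrays. The in vivo embryos came from Holstein animals whose follicles over 8 mm were ablated. These animals then received 400 mg of FSH in 8 injections, from 60 mg at first to 20 mg at last. A 500 µg dose of a prostaglandin F2α analogue was given with each of the last injections. The animals were inseminated with pooled semen at 12 and 24 h after oestrus. Embryos were flushed from the uterus 7.5 days after the first insemination (7 days in another label). The in vitro embryos came from oocytes of 2 to 6 mm follicles, matured, fertilised with the same semen pool and cultured. They were collected at 168 h after fertilisation. The labels describe their oocytes both as obtained by OPU (ovum pick-up) and as aspirated from slaughterhouse ovaries, call the 4 samples of each kind biological replicates, and give no number of embryos or donors per sample. Oocyte source, follicle size, donor treatment and culture all change together with the kind of embryo and cannot be told apart. In such whole-embryo RNA, fewer cells of a type and less RNA per cell cannot be told apart either.

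Each of the 4 replicate pairs was hybridised once with in vitro RNA in Cy5 (slide 58) and once with in vivo RNA in Cy5 (slide 61), and its 2 arrays were averaged. The median spot read 87.3 to 187 in Cy5 and 110 to 267 in Cy3. A probe was called detected where its spot was brighter than 95% of the negative control spots, a limit of 76 to 229 depending on array and dye. Array ratios correlated at 0.50 to 0.88 within a slide and at only 0.02 to 0.51 between slides. Replicate 2 stood apart, correlating at 0.39 to 0.46 with the others, which correlated at 0.80 to 0.82. Of the blastocyst markers, 7 of 7 on the array were tested, and NANOG at -1.77 ± 0.13 and KRT18 at -1.46 ± 0.27 were lower in vitro (log2 ratio ± SE, limma adjusted p = 0.00502 and 0.0223). The summed level of those 7 markers, in normalized intensity, was 22954 to 48883 in the in vitro samples and 68280 to 74936 in the in vivo samples. Most of that sum is the signal of KRT8, KRT18 and NANOG, and KRT8, at -1.01 ± 0.27, did not pass (limma adjusted p = 0.0567) and gave -0.13 on slide 58 and -1.89 on slide 61. Among markers of other cells, 0 of 6 cumulus and 0 of 4 blood genes tested passed the threshold (limma adjusted p from 0.0768 to 0.973). MUC1 of the uterine list (-0.45 ± 0.10, limma adjusted p = 0.0370) and TNP1 of the sperm list (-1.63 ± 0.14, limma adjusted p = 0.00534) were lower in vitro. MUC1 was detected on 7 of 8 arrays in vitro and 8 in vivo, so it entered the fit only through the group where it is high. Its normalized log2 level averaged 7.10 in vitro and 7.55 in vivo. The summed levels were 833 to 1009 in vitro and 962 to 1118 in vivo for cumulus, 588 to 929 and 695 to 884 for blood, 226 to 299 and 264 to 353 for the 2 uterine genes tested, and 126 to 211 and 410 to 606 for TNP1, the 1 sperm gene of 4 that was tested. AMHR2 of cumulus and ODF1 and AKAP4 of sperm were each detected on at most 1 of 8 arrays in either kind, HBB of blood on 7 and 6 (in vitro, in vivo), and the uterine PAEP on 3 and 5. PRM1, the remaining sperm gene, was detected on 7 of 8 arrays in vitro and 4 in vivo, in the opposite order to TNP1, and was not tested. The part of these markers in the results below was not tested. The marker lists, like the other gene lists, were chosen with earlier results of these data known. Their adjusted p-values are therefore given as a description.

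Of the 6 genes with a probe, 5 had at least 1 probe detected on all 8 arrays and entered the fit: AASS, AADAT, ALDH7A1, DHTKD1 and GCDH. The members did not share 1 direction. AASS and GCDH, its first and last enzymes among the members, were lower in vitro, AADAT in the middle was higher, and DHTKD1 and ALDH7A1 lay within their replicate spread. By their brightest probes, 1 member was past the threshold as higher and 2 as lower in limma's fit across all genes (adjusted p under 0.05), where 9.23% of 10188 genes were higher and 12.6% lower, 21.8% in all. Since the set was chosen with these ratios known, nothing is read from that count, which loses GCDH when replicate 1 or 4 is left out. The median log2 ratio of the 5 members was -0.13, against -0.01 over all genes tested.

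**Figure D1:**
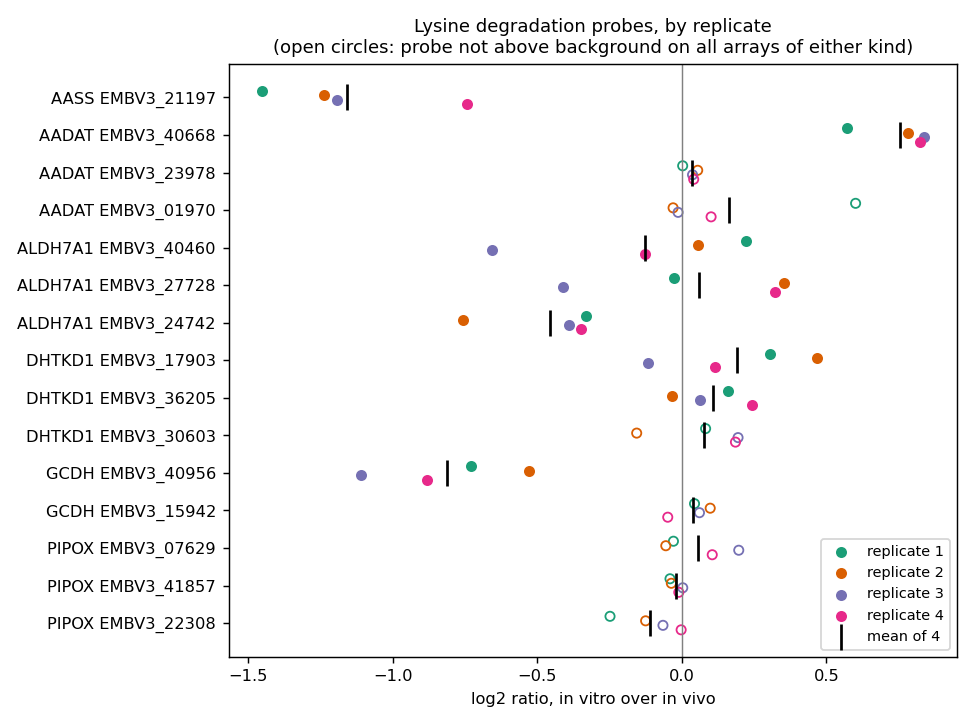
Log2 ratio of in vitro over in vivo (x axis) for the 15 probes of the 6 genes (rows), 1 circle per replicate and a bar at the mean of 4; open circles are the 7 probes that were not detected on all arrays of either kind of embryo. AASS EMBV3_21197 and GCDH EMBV3_40956 lie left of 0 in all 4 replicates, AADAT EMBV3_40668 lies right of 0 in all 4, and the open circles mostly gather near 0.

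AASS, which commits lysine to this route, had the largest ratio of the set and a single probe, EMBV3_21197. Its uncorrected spots read 351, 432 and 538 (lowest, median and highest of 8 arrays) in the in vitro channel and 752, 951 and 1442 in the in vivo channel, with no overlap. After normalization its log2 level was 8.54, 8.96, 8.49 and 8.92 in in vitro replicates 1 to 4 and 9.99, 10.19, 9.69 and 9.67 in the in vivo ones. Every in vivo sample was thus above every in vitro sample, though how common such a separation is among all genes was not counted. The log2 ratio was -1.45, -1.24, -1.19 and -0.74 in replicates 1 to 4, below 0 on 8 of 8 arrays. The mean was -1.16 ± 0.13 (SE, n = 4), that is 2.23-fold higher in vivo. For scale, 95% of all genes tested had an absolute log2 ratio under 0.88.

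GCDH, the dehydrogenase that makes crotonyl-CoA, was read by probe EMBV3_40956. Its uncorrected spots read 294, 371 and 476 (lowest, median and highest of 8 arrays) in vitro and 562, 701 and 845 in vivo, again without overlap. The normalized log2 level was 8.62, 8.67, 8.31 and 8.35 in in vitro replicates 1 to 4 and 9.35, 9.20, 9.42 and 9.24 in vivo. The in vivo samples were close together (SD 0.10), and all lay above the in vitro samples. The log2 ratio was -0.73, -0.53, -1.11 and -0.88 in replicates 1 to 4, with a mean of -0.81 ± 0.11 (SE, n = 4), or 1.76-fold higher in vivo. The second GCDH probe, EMBV3_15942, was detected on 4 of 8 arrays in each kind and gave 0.04 ± 0.06 (SD, n = 4), so the GCDH difference rests on 1 probe. Leaving out 1 replicate gave -0.91 to -0.71.

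AADAT, the aminotransferase of aminoadipate that also acts on kynurenine, went the other way. On its bright probe, EMBV3_40668, uncorrected spots read 567, 745 and 878 (lowest, median and highest of 8 arrays) in vitro and 376, 482 and 593 in vivo. The in vitro channel was the brighter one on each array, although these ranges overlap. The normalized log2 level was 9.34, 9.44, 9.36 and 9.82 in in vitro replicates 1 to 4 and 8.77, 8.66, 8.52 and 9.0 in vivo, without overlap. The log2 ratio was 0.57, 0.78, 0.84 and 0.83 in replicates 1 to 4, above 0 on 8 of 8 arrays, with a mean of 0.75 ± 0.07 (SE, n = 4) or 1.69-fold. The other AADAT probes, EMBV3_23978 and EMBV3_01970, were each detected on 1 of the 16 channel readings and carry no usable ratio.

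**Figure D2:**
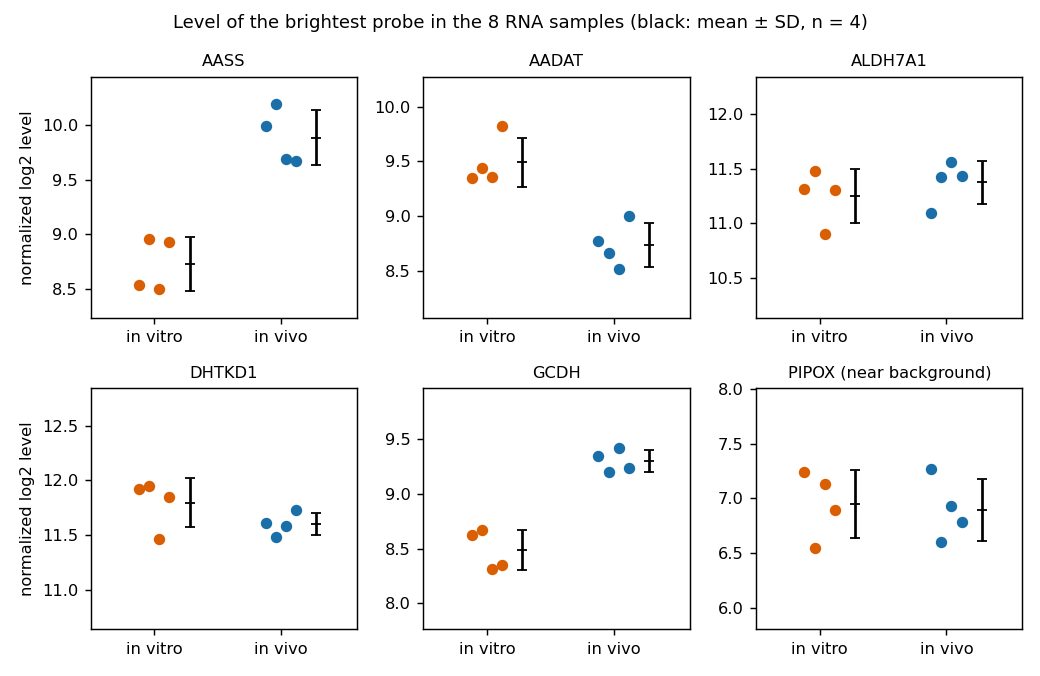
Normalized log2 level (y axis, every panel spanning the same range) of the brightest probe of each gene in the 4 in vitro (orange) and 4 in vivo (blue) RNA samples, with mean ± SD in black; panels are not comparable in height, since probes differ in brightness. The groups are apart for AASS (8.49 to 8.96 against 9.67 to 10.19), GCDH and AADAT, and overlap for ALDH7A1, DHTKD1 and PIPOX. The share of all genes tested whose groups are apart was not counted, so nothing is read from this separation.

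DHTKD1, the first subunit of the 2-oxoadipate dehydrogenase complex, was read by probe EMBV3_17903. Its uncorrected spots read 3079, 3689 and 4394 (lowest, median and highest of 8 arrays) in vitro and 2849, 3133 and 3742 in vivo. Its normalized log2 level was 11.92, 11.95, 11.46 and 11.85 in in vitro replicates 1 to 4 and 11.61, 11.48, 11.58 and 11.73 in vivo, and the groups overlapped. The log2 ratio was 0.31, 0.47, -0.12 and 0.11 in replicates 1 to 4, with a mean of 0.19 ± 0.11 (SE, n = 4). A dimmer probe, EMBV3_36205, gave 0.11 ± 0.07. The third, EMBV3_30603, was not detected on any array.

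ALDH7A1, the semialdehyde dehydrogenase, had 3 probes detected on all arrays, and they did not give 1 answer. The brightest, EMBV3_40460, read 1946 to 2944 in vitro and 2144 to 3551 in vivo before correction and gave log2 ratios of 0.22, 0.06, -0.66 and -0.13 in replicates 1 to 4, with a mean of -0.13 ± 0.16 (SE, n = 4). EMBV3_27728 gave -0.03, 0.35, -0.41 and 0.32, with a mean of 0.06 ± 0.15. On both, replicate 3 was the lowest. The third probe, EMBV3_24742, gave -0.33, -0.76, -0.39 and -0.35, with a mean of -0.46 ± 0.09. That lower mean came from 1 slide: the probe stood at -1.04 ± 0.48 (SD, n = 4) with in vitro in Cy5 and at 0.13 ± 0.08 with in vivo in Cy5. In the in vivo channel its uncorrected spot reached 2902 on the replicate 2 array with in vivo in Cy3, against 438 on the array with the dyes reversed.

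PIPOX, the pipecolate oxidase, stayed near the background. Its brightest probe, EMBV3_07629, was detected on 5 of 8 arrays in each kind and read 108 to 255 in vitro and 100 to 268 in vivo before correction. The remaining probes, EMBV3_41857 and EMBV3_22308, were detected on at most 2 of 8 arrays in either kind. No ratio is read for PIPOX at this brightness.

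The difference between the dye orientations is a measure that did not enter the choice of the members, and it was tested. For AASS the log2 ratio was -0.86 on slide 58 (in vitro in Cy5) and -1.45 on slide 61, a difference of 0.60 ± 0.05 (SE, n = 4 replicates, limma adjusted p = 0.000106 over all genes). GCDH stood at -0.59 and -1.03 on those slides, differing by 0.44 ± 0.06 (limma adjusted p = 0.000489), and ALDH7A1 on its brightest probe at 0.15 and -0.40, differing by 0.54 ± 0.05 (limma adjusted p = 0.000127). AADAT stood at 0.81 and 0.70 (difference 0.12 ± 0.05, limma adjusted p = 0.0607) and DHTKD1 at 0.23 and 0.15 (difference 0.08 ± 0.06, limma adjusted p = 0.247). So 3 of 5 members differed between orientations, a share near the background of 69.9% of all genes. The direction of AASS, GCDH and AADAT was the same on both slides, while that of ALDH7A1 was not. For the ALDH7A1 probe EMBV3_24742 the difference was -1.17 ± 0.19 (limma adjusted p = 0.00138 over all probes).

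**Figure D3:**
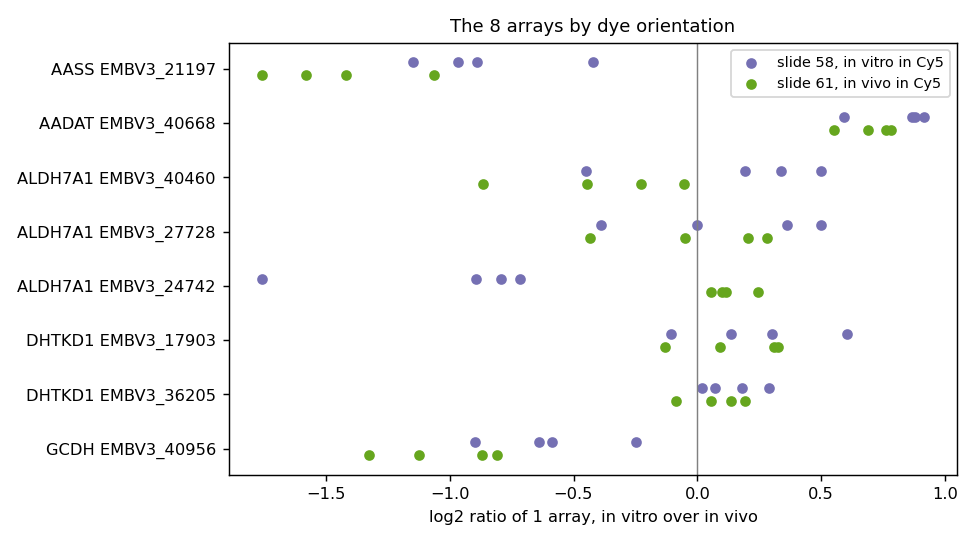
Log2 ratio of in vitro over in vivo on each single array (x axis) for the 8 probes tested (rows), 4 arrays of slide 58 in purple and 4 of slide 61 in green. AASS lies below 0 and AADAT above 0 on all 8 arrays, and for ALDH7A1 EMBV3_24742 the slides lie on opposite sides of 0, with means of -1.04 and 0.13.

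The partners of the lysine enzymes were described from lists of 90 further genes on the array, of which 69 were tested: 7 were higher and 12 lower in vitro, and 50 did not pass the threshold. These 19 genes are 27.5% of those tested, beside 21.8% of all genes, and the median log2 ratio was -0.04. The lists were chosen with earlier results of these data known, so nothing is read from that share. The adjusted p-values of the listed genes are given as a description for the same reason. Leaving out replicate 1, 3 or 4 reduced the genes past the threshold to 7, 9 and 6, and leaving out replicate 2 raised them to 28. Values below are log2 ratio ± SE with limma adjusted p over all genes (n = 4).

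DHTKD1 and OGDH are alternative first subunits that share DLST and the third subunit, DLD. DLD rose by 1.13 ± 0.09 (adjusted p = 0.00502), with 1.31, 0.86, 1.18 and 1.17 in replicates 1 to 4, so that it was above 0 in each. OGDH fell by 0.70 ± 0.15 (adjusted p = 0.0337), though not past the threshold without replicate 1 or 4, without background correction or without the filter on dim probes. OGDH, DHTKD1 and DLD thus had mean log2 ratios of -0.70, 0.19 and 1.13, each on its brightest probe. OGDH and DLD had no other tested probe, and the dimmer DHTKD1 probe is given above. Among 14 related subunits and regulators of the pyruvate and branched-chain complexes, 3 were higher and 1 lower. The pyruvate dehydrogenase subunit genes DLAT (0.60 ± 0.11, adjusted p = 0.0224), PDHA1 (0.52 ± 0.10, adjusted p = 0.0267) and PDHB (0.23 ± 0.06, adjusted p = 0.04999) rose, and BCKDHA of the branched-chain complex fell by 1.30 ± 0.14 (adjusted p = 0.00659). PDHA1 was -0.04 on slide 58 and 1.07 on slide 61. With adjustment over all probes, 1 of 3 tested PDHA1 probes and 0 of 2 tested PDHB probes passed as higher. Without replicate 1, 3 or 4, none of DLAT, PDHA1 and PDHB passed. PDHB, the nearest of them to the threshold, passed in 6 of 12 alternatives and was also lost with median centring, with the deposited ratios and on slide 61 alone.

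By their brightest probes, the genes that carry electrons from GCDH to ubiquinone, ETFA and ETFB of the flavoprotein and then ETFDH, were lower in all 3 cases. ETFDH, the oxidoreductase that passes them to ubiquinone, fell by 0.79 ± 0.10 (adjusted p = 0.00923). ETFB fell by 0.53 ± 0.12 (adjusted p = 0.0382) and ETFA by 0.58 ± 0.14 (adjusted p = 0.0488). ETFA and ETFB passed in 5 and 6 of 12 alternative settings, ETFDH in all 12. With adjustment over all probes, 2 of 4 tested ETFB probes and 0 of 1 ETFA probe passed as lower. The ETFB call was lost with the median over its tested probes. Its brightest probe gave -0.88 on slide 58 and -0.19 on slide 61. Of the 6 genes tested that work after glutaryl-CoA, in the steps to acetyl-CoA or nearby in fatty acid oxidation, 0 passed in either direction, with log2 ratios from -0.46 for HSD17B10 to 0.45 for ECHS1 (adjusted p = 0.159 and 0.247).

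Of 11 genes for the uptake or mitochondrial carriage of lysine and related amino acids, 0 were higher and 1 was lower. SLC7A7, a light chain of cationic amino acid exchange, fell by 0.86 ± 0.15 (adjusted p = 0.0206), a call lost without replicate 1, 3 or 4. SLC7A6, of the same exchange system, stood at 0.96 ± 0.25 (adjusted p = 0.0547), with 0.75, 1.90, 0.74 and 0.46 in replicates 1 to 4. The oxoadipate carrier gene SLC25A21 gave 0.38 ± 0.14 (adjusted p = 0.127). SLC7A1, the main cationic amino acid transporter in many cells, was detected on 0 of 8 arrays in vitro and 3 of 8 in vivo and was not tested.

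In the pipecolate and hydroxylysine branch 1 of 4 genes tested was lower, GLT25D1 (now COLGALT1), which adds galactose to hydroxylysine in collagen, at -0.89 ± 0.14 (adjusted p = 0.0142). In the branch from trimethyllysine to carnitine 1 of 9 was higher, the carnitine transporter gene SLC22A5, at 0.83 ± 0.14 (adjusted p = 0.0179). Both calls were lost without replicate 1, 3 or 4, and that of SLC22A5 also with median centring in place of loess. TMLHE, the trimethyllysine hydroxylase, gave -0.08 ± 0.13 (adjusted p = 0.732).

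AADAT shares kynurenine as a substrate with other aminotransferases. Of 6 kynurenine pathway genes tested, GOT2, the mitochondrial aspartate aminotransferase that also accepts kynurenine, rose by 1.14 ± 0.12 (adjusted p = 0.00641), and CCBL1 (now KYAT1) fell by 1.06 ± 0.21 (adjusted p = 0.0264). CCBL2 (now KYAT3) gave 0.02 ± 0.12 (adjusted p = 0.943). The CCBL1 call was lost without replicate 1, 3 or 4, and that of GOT2 held in all 12 alternatives.

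PIPOX also oxidises sarcosine, and of 3 choline to glycine genes tested 0 were higher and 0 lower (adjusted p from 0.138 to 0.756). Beside ALDH7A1, 13 other aldehyde dehydrogenase genes were tested, of which 1 was higher and 4 lower. ALDH1L2, of mitochondrial folate metabolism, fell by 1.55 ± 0.16 (adjusted p = 0.00653), and ALDH2, the mitochondrial acetaldehyde dehydrogenase, stood at -1.15 ± 0.06 (adjusted p = 0.00502). ALDH4A1 of proline breakdown (-0.84 ± 0.12, adjusted p = 0.0120) and ALDH18A1 of proline synthesis (-0.39 ± 0.08, adjusted p = 0.0322) also fell. ALDH1A1, a retinal dehydrogenase, is the 1 counted as higher (adjusted p = 0.0107). It was detected on 8 of 8 arrays in vitro but on 3 of 8 in vivo and so entered the fit only through the group where it is high, and its measured log2 ratio of 1.46 is set against a level near background. Of these, ALDH1L2 and ALDH2 passed in all 12 alternatives, and ALDH4A1 did not pass without replicate 1 or 4, ALDH1A1 without replicate 4, nor ALDH18A1 without replicate 1, 3 or 4, with median centring or on slide 58 alone.

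**Figure D4:**
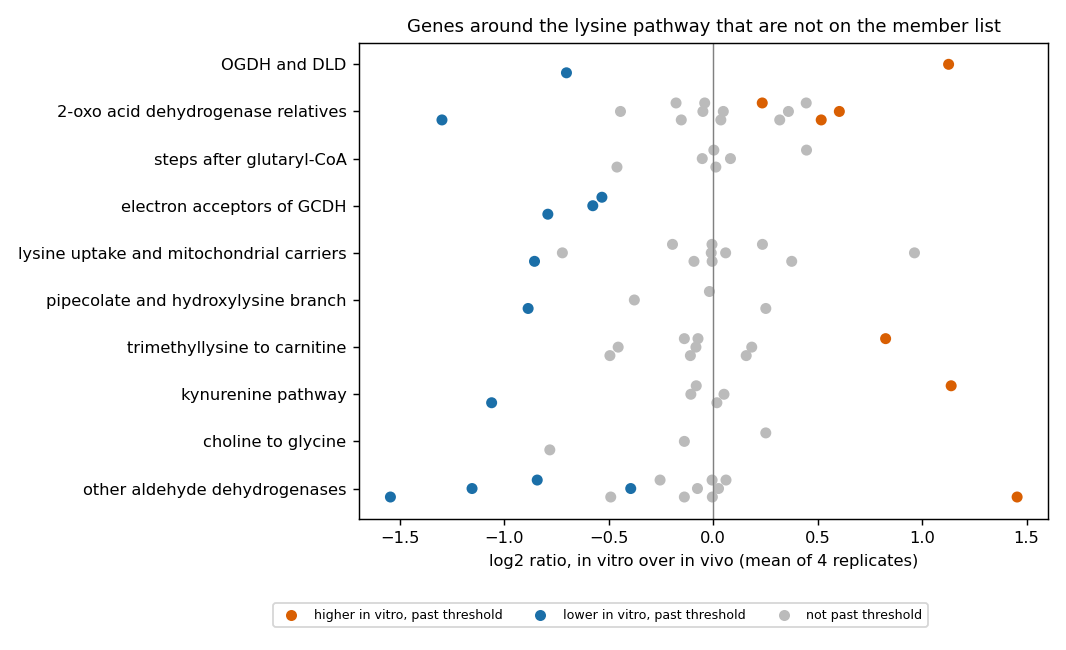
Mean log2 ratio of in vitro over in vivo (x axis) for the genes tested in each list around the lysine pathway (rows); orange and blue points passed the threshold as higher and lower, grey points did not, and a gene on several lists is drawn in each. The blue points include ETFDH, ETFA and ETFB, the only genes tested in the row labelled electron acceptors of GCDH, where ETFDH acts after the other genes. The 6 genes after glutaryl-CoA are all grey.

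Across the 8 RNA samples the level of AASS correlated with that of GCDH at r = 0.89, with ALDH7A1 at 0.36, with DHTKD1 at -0.46 and with AADAT at -0.80. The samples share arrays in pairs and fall into the 2 kinds of embryo, so the values reflect the difference between the kinds as well as any variation within them and are given with no test. The genes most like AASS by Pearson correlation over the same 8 samples were CDC42BPG, JARID2, FAM115A (now TCAF1), ZNF462 and PTPN5, from 0.99 for CDC42BPG to 0.97 for PTPN5, out of 9415 genes compared, of which 205 were above 0.9.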

How the data were processed

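Embryo RNA, isolated by PicoPure and amplified by RiboAmp, was labelled chemically (ULS) with Cy3 or Cy5, per the labels' protocols. The authors deposited raw spot intensity and local background for both dyes, 1 table per array, uncorrected per the file headers. The authors also deposited log2 ratios of the same arrays, whose normalization and centring stay unknown. Set against Cy5 over Cy3 of 3869 bright probes, they correlated at 0.975 to 0.976 on slide 58 and at -0.994 to -0.990 on slide 61, so each column reads in vitro over in vivo; column medians were -0.00385, 0.00131, -0.000779 and -0.00208 for replicates 1 to 4 on slide 58 and 0.00119, 0.000800, -0.00359 and -0.00255 on slide 61.

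Mean intensities were corrected with normexp (offset 50) and loess-normalized within arrays in limma 3.58.1 (R 4.3.3), with control spots at weight 0. Levels per channel come from the same values after Aquantile normalization between arrays. The 24775 probes detected in all 8 arrays of at least 1 kind were tested with limma's lmFit and eBayes, two-sided. Benjamini-Hochberg adjustment ran over 10188 genes, each represented by its brightest tested probe. The fit was also run on simulated data with independent noise, in which no replicate stands apart as replicate 2 does here. Nothing is read from that run. The number in the labels pairs the arrays: deviations from the slide mean correlated at 0.70, 0.89, 0.87 and 0.78 within numbers 1 to 4, and at most at 0.15 otherwise.

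The members and gene lists were chosen with earlier results of these data known. Named are every member and, per list, the genes past the threshold (the 4 with the largest change where over 5 passed), OGDH and DLD, and the 5 genes most like AASS; SLC7A6, SLC25A21, SLC7A1, TMLHE, CCBL2, HSD17B10 and ECHS1 were added after their values were seen. Symbols are those of the platform annotation. No coordinates or sequences are given. Plots come from matplotlib 3.10.9 under Python 3.11.15. Alternatives covered background correction, normalization, the deposited ratios, the filter, each slide, each replicate left out, a replicate block and the choice of probe. The number of arrays limits the precision.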

Additional observations from a re-analysis of the deposited data

Results flagged for a closer look

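The ALDH7A1 probe EMBV3_24742 had 1 replicate far from the rest. Replicate 2 gave a log2 ratio of -0.76, where the others lay between -0.39 and -0.33, a gap of 0.86 of the whole range, past Dixon's 95% critical value for 4 samples. This was 1 of 15 member probes examined, and chance flags about 1 in 20. Its single arrays of replicate 2 read -1.76 on slide 58 and 0.24 on slide 61.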

How the results depend on the processing

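Over 12 alternatives the log2 ratio ran from -1.45 to -0.86 for AASS, 0.69 to 0.82 for AADAT and -1.03 to -0.59 for GCDH. For DHTKD1 it ran from 0.10 to 0.30, and each gene kept 1 sign throughout. The filter and the replicate block could not change these ratios. Nor could the choice of probe for AASS, AADAT and GCDH, which had 1 tested probe each. ALDH7A1 ran from -0.40 to 0.15, with 10 of 12 alternatives of the sign reported. PIPOX had no tested probe, except without the filter on dim probes, where it did not pass the threshold. Only AASS moved by more than its replicate SD, to -0.86 on slide 58 alone and -1.45 on slide 61 alone. Slide 58 alone gave 1491 genes higher in vitro. Leaving out 1 replicate gave 282 to 1626 genes higher, 357 to 2063 lower and 6 to 28 genes of the surrounding lists past the threshold. The count of members that differed between dye orientations was 3 in each setting run for it. With the replicate block over 8 arrays and a dye term, 1377 genes were higher, 1742 lower and 28 of the surrounding lists passed. The member ratios (AASS -1.16) could not differ there, since each is the mean of the same 8 arrays. Probes near background understate folds.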
